A study of Danio rerio with 15 samples.

Results

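Transcripts were followed from the 16-cell stage to 9 hours after fertilisation in zebrafish embryos without Dicer, the enzyme that cuts microRNA precursors into mature microRNAs. The comparison was fixed by the labels alone and used 5 of the 15 arrays of the series: wild-type embryos of the strain TLAB at the 16-cell stage (n = 2) and uninjected MZdicer embryos at 9 hours (n = 3). MZdicer embryos are mutants that lack Dicer from the mother as well as from their own genome. Uninjected wild-type embryos at 9 hours (n = 3) served as the comparison at the same age. One wild-type array at 50% epiboly, the onset of gastrulation, of the strain TLAB, is given beside the others as a single value. No array of MZdicer embryos at the 16-cell stage was analysed here. The 16-cell values are therefore those of wild-type eggs, genotype and stage differ together, and the stock that MZdicer eggs started with was not measured. The sources used here do not give the strain of the MZdicer mutants or of the wild type at 9 hours.

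An early zebrafish embryo runs on messenger RNA that the mother placed in the egg. After the first cleavages the embryo switches on its own genome, and a large share of the maternal messages is then removed. Part of that removal uses maternal proteins that act on the messages. Another part needs products of the embryo's own genome, among them the microRNA family miR-430, which shortens poly(A) tails and is missing in MZdicer embryos. The series title names miR-430 in this clearance as its question.

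Each array carried RNA from 20 embryos that was primed with oligo(dT), so a signal depends on the poly(A) tail of a transcript as well as on its amount. In such whole-embryo RNA, fewer cells of a type and less RNA per cell cannot be told apart. Levels below are quantile-normalised intensities, and changes are on the log2(intensity + 16) scale, which understates the change of dim transcripts. Values at or below 0 form a floor of 0, which holds 79 probe sets on each of these arrays, and a probe set there is described as listed at 0. Adjusted p-values come from limma, adjusted by Benjamini-Hochberg over the 15502 probe sets tested, and a change was called at an adjusted p under 0.05. Pearson correlations between arrays of a group were 0.989 to 0.996. The labels do not state whether replicates are separate clutches, and the tests measure only the spread between these arrays, which may be technical. Both 16-cell arrays and the 50% epiboly array were scanned on 1 day, and the MZdicer arrays on another, so stage and scan day cannot be told apart. Of the wild-type arrays at 9 hours, replicates 2 and 3 shared the scan day of the MZdicer arrays and replicate 1 did not. None shared the recorded hybridisation date of the MZdicer arrays, so genotype and this batch cannot be told apart at 9 hours. Ratios of control probe sets along a transcript, often used to judge RNA quality, also differed between stages and genotypes. For GAPDH the ratio of the middle to the 5′ control averaged 0.453 at the 16-cell stage, 0.948 in MZdicer and 0.797 in wild type at 9 hours, and that of the 3′ to the 5′ control 0.371, 0.196 and 0.162. For actin the ratio of the middle to the 5′ control was 4.12 to 4.19 at the 16-cell stage, 15.4 to 20.4 in MZdicer and 8.70 to 10.9 in wild type, with no overlap between the genotypes. The GAPDH ratios moved in opposite directions after the 16-cell stage, so they give no single reading of RNA quality. The part of the control ratios in the results was not tested.

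The dicer1 transcript itself was measured first. Its intensities were 635 and 626 at the 16-cell stage, 313, 290.4 and 314 in MZdicer and 499.8, 444 and 455 in wild type at 9 hours. Every MZdicer array was below every wild-type array at 9 hours (log2 difference -0.58 ± 0.07 SE, adjusted p = 8.9e-06). The sources used here do not say which stretch of the transcript the probes match, and the signal left in MZdicer therefore does not test the labels.

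Without Dicer, probe sets fell and rose between the 16-cell stage and 9 hours in numbers close to those of wild type. These counts cover all probe sets, not sorted into maternal and zygotic ones. The shared 16-cell arrays and quantile normalisation tie the counts of the 2 genotypes together. From the 16-cell stage to MZdicer at 9 hours, 6897 probe sets were called lower, 44.5% of all tested, and 3223 of them by at least 2-fold (20.8%). Another 5226 were called higher (33.7%), 3042 of them by at least 2-fold (19.6%). For wild type at 9 hours, set against the same 16-cell arrays, 6202 were called lower (40.0%), with 3252 by at least 2-fold (21.0%), and 5526 were called higher (35.6%), with 3005 by at least 2-fold (19.4%). The median log2 change over all probe sets was -0.18 in MZdicer and -0.08 in wild type. On the intensities as deposited the median for MZdicer was 0.13. Of the calls in MZdicer, 43.1% were rises after quantile normalisation and 55.4% were rises as deposited, so the balance of rises and falls depends on the scaling, and list counts are read beside those over all genes.

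The direct comparison of MZdicer with wild type at 9 hours does not use the level at the 16-cell stage. The 16-cell arrays entered it only through the normalisation and the shared estimate of spread. The comparison called 3524 probe sets higher in MZdicer (22.7%) and 4118 lower (26.6%). At least 2-fold differences were fewer, with 717 probe sets higher (4.63%) and 275 lower (1.77%). The median log2 difference over all probe sets was -0.07. As deposited, the calls split into 4383 higher and 2417 lower, with a median of 0.03, and with median centring into 3261 higher and 4774 lower.

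To follow maternal messages, probe sets with a mean of at least 500 on the 16-cell arrays were taken as bright at that stage. They numbered 3977, or 25.7% of all, and the class edge lay between 499.33 and 500.01. Because the 16-cell arrays chose them, their falls are a description. In MZdicer 2704 of them were called lower, 1734 by at least 2-fold, and 886 were called higher. In wild type 2682 were called lower, 1765 by at least 2-fold, and 921 were called higher.

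The share of the 16-cell signal that was left was close in both genotypes. Its median over the bright probe sets was 57.1%, 57.2% and 57.2% on the MZdicer arrays and 57.4%, 56.1% and 56.7% on the wild-type arrays at 9 hours, against 62.1% on the 50% epiboly array. Quantile normalisation gives every array the same distribution, which ties these medians together. On the intensities as deposited they were 53.9% in MZdicer and 48.1% in wild type. The tail of strongly reduced transcripts was longer in wild type. At most 10% of the signal was left for 313 probe sets in MZdicer (7.87% of the bright ones) and for 397 in wild type (9.98%). At most 25% was left for 854 and 945, and at most 50% for 1769 and 1799. The background of the arrays is not known, so a low percentage may overstate what was left.

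**Figure D1:**
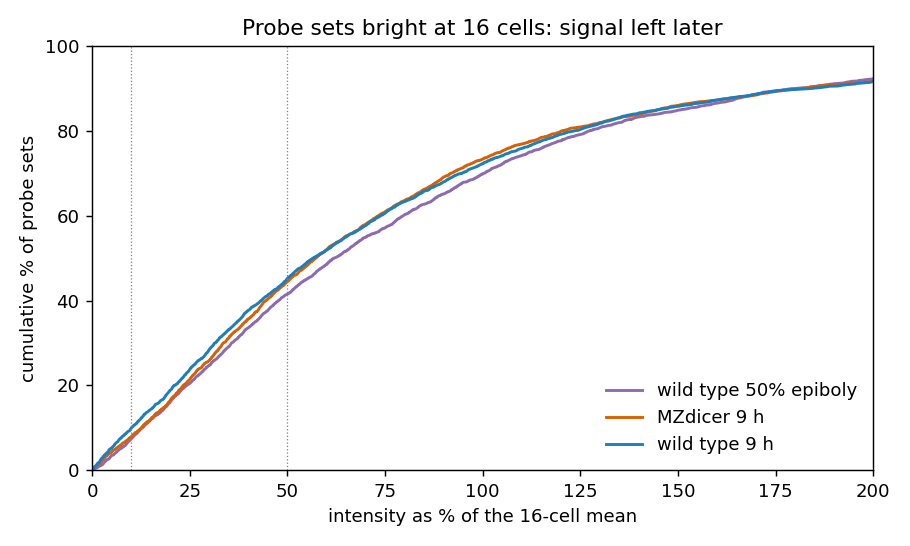
Cumulative share of the 3977 probe sets bright at the 16-cell stage (y axis, percent) against the intensity left at a later stage as a percentage of the 16-cell mean (x axis), for the 50% epiboly array and the means of 3 MZdicer and 3 wild-type arrays at 9 hours. The curves of MZdicer and wild type lie close together at 50% (1769 and 1799 probe sets) and apart at 10% (313 and 397), both marked by dotted lines.

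Within the bright class the 2 genotypes were then compared directly at 9 hours. MZdicer was called higher for 1251 probe sets and lower for 1308, with a median log2 difference of -0.01. This balance turned on the intensities as deposited, with 1687 higher and 960 lower. At least 2-fold differences leaned towards MZdicer under each of these scalings, and in the quantile-normalised values they numbered 255 higher (6.41% of the class, against 4.63% of all probe sets) and 68 lower (1.71%, against 1.77%). Within the scan day shared by the MZdicer arrays and wild-type replicates 2 and 3, these counts were 279 and 64. Scan day as a fixed block gave the same counts by construction, since it sets aside wild-type replicate 1, the only array of its day. Neither setting bears on the recorded hybridisation date, which differed between the genotypes. Of the 255, 179 were nevertheless called lower in MZdicer than at the 16-cell stage, 126 of them by at least 2-fold. The median signal left over the 255, which were chosen by this difference, was 49.5% in MZdicer and 17.2% in wild type.

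The single 50% epiboly array, which is in neither group of the genotype comparison, sorts the bright probe sets by how early they disappear in wild type. That array is itself wild type, and no MZdicer array of that stage was used. Probe sets low on it are therefore favoured to be low in wild type at 9 hours, and those high on it to be high. The genotype counts after this split are a description. This split was chosen after the values were seen. Among the 813 probe sets with at most 25% left at 50% epiboly, MZdicer was called higher than wild type at 9 hours for 411 (50.6%) and lower for 106 (13.0%). By at least 2-fold it was higher for 146 (18.0%) and lower for 7. These early-clearing transcripts also went down without Dicer, since 804 of the 813 were called lower in MZdicer than at the 16-cell stage, and their median signal left was 14.8% in MZdicer and 10.9% in wild type. Among the 1705 probe sets with at least 75% left at 50% epiboly, the balance was the other way, with MZdicer higher for 363 (21.3%) and lower for 720 (42.2%).

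Transcripts of the egg and of the meiotic divisions fell without Dicer. Of 32 measured genes listed as oocyte and egg specific, 29 were called lower in MZdicer and 2 higher, with a median log2 change of -3.29. For comparison, 48.2% of all 8793 genes with a symbol were called lower and 32.4% higher, with a median of -0.24. Wild type gave the same counts for this list, 29 lower and 2 higher. The list's direction is what its name implies, since it was assembled from genes known from eggs.

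The claudin gene cldnd, of a family of tight junction proteins, had 13081 and 13299 at the 16-cell stage and was listed at 0 on all MZdicer and all wild-type arrays at 9 hours. Its 50% epiboly value was 66.8, so the loss was nearly complete at that stage. The kinase gene mos, which holds the egg in meiosis, had 4981 and 5758 at the 16-cell stage, 32, 20.7 and 17.7 in MZdicer and 30.1, 24.9 and 29.9 in wild type. The groups at 9 hours overlapped, and the fall from the 16-cell stage in MZdicer was -7.11 ± 0.16 SE on the log2 scale (adjusted p = 7.8e-16). The kinase gene wee2, an inhibitor of cell cycle entry in eggs, went from 7323 and 7178 to 76.4, 63.4 and 63.2 in MZdicer and 87.9, 83.7 and 96.1 in wild type (-6.44 ± 0.16 SE, adjusted p = 2.4e-15). All 5 probe sets for wee2 were called lower in MZdicer than at the 16-cell stage.

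The zinc finger gene cth1 fell from 10110 and 10061 to 0, 4.59 and 0 in MZdicer and 25, 11.4 and 23.5 in wild type. Here the MZdicer arrays were all below the wild-type arrays (log2 difference -1.03 ± 0.33 SE, adjusted p = 0.017), at levels where background is not known. That call was lost with scan day as a fixed block and without replicates 1 or 3 of either genotype (adjusted p = 0.052 to 0.058). The gene zar1l, related to a factor of the egg-to-embryo transition, fell from 5425 and 5378 to 80.8, 85.4 and 74.8 in MZdicer and 120.3, 95.2 and 108 in wild type. The genotype difference was -0.36 on the log2 scale and its call (adjusted p = 0.046) was lost in most alternatives. These included the intensities as deposited and the omission of any single array except wild type replicate 2. The adjusted p was 0.14 without wild type replicate 1. The stem-loop binding protein gene slbp2, which in eggs serves histone messages, fell from 6672 and 6238 to 39, 47 and 37 in MZdicer and 30.4, 30.2 and 24.7 in wild type. The MZdicer arrays were the higher ones for slbp2 (log2 difference 0.36, adjusted p = 0.021). That call was lost with median centring (adjusted p = 0.051) and without MZdicer replicate 2 or wild type replicate 3.

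The 20 largest falls among bright genes covered log2 changes of -9.69 to -5.74 in MZdicer, with at most 1.62% of the 16-cell signal left. All 20 were called lower in wild type too. Besides those above and buc, described below, they included ccnp and ccnb1l of the cyclin family, the importin gene kpna7, which carries proteins into the nucleus of the egg and early embryo, the survivin gene birc5b of the chromosomal passenger complex, and the linker histone gene h1m of the germ line and early embryo. The others were the phosphatase regulator gene ppp1r3c2b, the formin-type gene fhdc3, tatdn2, the protease inhibitor gene spink2.1, the lipase gene lipg, the autophagy gene map1lc3c, the peroxidase gene gpx8 and the membrane protease gene tmprss4b. Between the genotypes at 9 hours, 3 of the 20 were called higher in MZdicer, 5 lower and 12 in neither direction.

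Germ plasm, the maternal material that marks future germ cells, gave a list of 17 measured genes. Of these 16 were called lower in MZdicer and 1 higher, with a median log2 change of -3.23. In wild type 16 were called lower and none higher, and 1 was not called. Between the genotypes, 5 genes were called higher and 2 lower in MZdicer, with no call for 10. Over all genes with a symbol, 24.4% were called higher and 29.2% lower in this comparison, and the genotype counts of the lists below are read beside these shares.

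The gene buc organises germ plasm, and its signal was 8480.3 and 8437 at the 16-cell stage, 77.9, 62.6 and 68.2 in MZdicer and 72, 70.7 and 71.4 in wild type. Both groups at 9 hours had lost about as much, with 0.823% and 0.844% left, and their difference was -0.03 ± 0.11 SE (adjusted p = 0.82). The gene asz1, a germ plasm component, fell by a log2 change of -5.07 ± 0.16 SE in MZdicer (adjusted p = 8.9e-14), with 2.31% left against 2% in wild type. The RNA-binding protein gene dnd1, which protects germ cell messages from microRNAs, had 3804 and 3965 at the 16-cell stage, 715, 705 and 739.7 in MZdicer and 689, 736 and 735 in wild type. The groups at 9 hours overlapped. On a second, dimmer probe set for dnd1 the means were 302 in MZdicer and 212 in wild type, and MZdicer was called higher (log2 difference 0.49, adjusted p = 2.8e-04).

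Other germ plasm messages stood apart between the genotypes. The Tudor protein gene tdrd6a had 1678 and 1561 at the 16-cell stage, 996, 1074 and 1043 in MZdicer and 102, 85.7 and 91.6 in wild type, and 199 already at 50% epiboly. All MZdicer arrays were above all wild-type arrays, with a log2 difference of 3.27 ± 0.12 SE (adjusted p = 3.4e-11), and 64.1% of the signal was left against 5.75%. The translational repressor gene nanos3 had 3884 and 4119.7 at the 16-cell stage, 554, 673 and 593 in MZdicer and 278, 253 and 293 in wild type, a log2 difference of 1.1 ± 0.09 SE (adjusted p = 9.5e-08). The opposite was seen for ddx4, the vasa helicase gene of germ cells. Its signal was 1532 and 1610.0 at the 16-cell stage, 207, 194 and 202 in MZdicer and 471, 427 and 514 in wild type, a log2 difference of -1.16 ± 0.11 SE (adjusted p = 7.3e-07). The germ cell gene dazl was reduced in both, from 4719 and 5174 to 108, 122 and 131 in MZdicer and 70.7, 75.1 and 80.2 in wild type, and the MZdicer arrays were the higher ones (0.57 ± 0.12 SE, adjusted p = 9.9e-04). The only gene of the list called higher than at the 16-cell stage was celf1, an RNA-binding protein gene, with a log2 change of 0.22. Its direction turned to -0.25 with median centring, and the call was lost as deposited (adjusted p = 0.71) and without MZdicer replicate 1 or 16-cell replicate 1. On a second probe set celf1 fell, from a mean of 296 to 99.6 (log2 change -1.43, adjusted p = 2.4e-08).

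**Figure D2:**
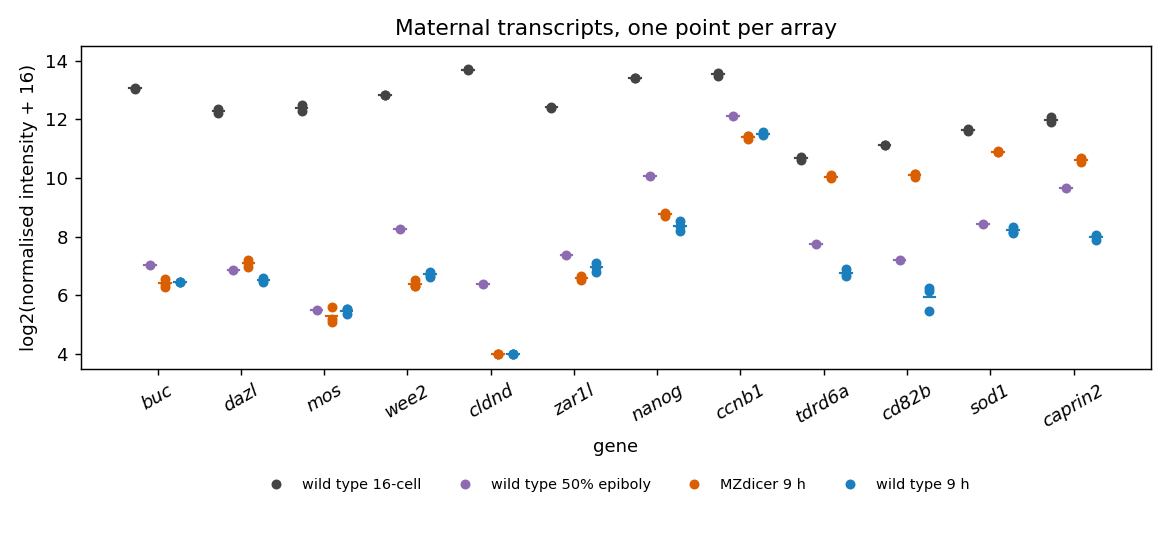
Normalised intensity (y axis, log2(intensity + 16)) of 12 maternal genes, 1 point per array and a short line at each group mean, for 2 wild-type arrays at the 16-cell stage, 1 at 50% epiboly, 3 MZdicer and 3 wild-type arrays at 9 hours. From buc to ccnb1 both groups at 9 hours lie far below the 16-cell arrays, and from tdrd6a to caprin2 the MZdicer points lie between the 16-cell and the wild-type points.

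Cell cycle messages were reduced in part. Of 42 cyclin and cell cycle genes, 25 were called lower and 11 higher in MZdicer, with 29 and 12 in wild type. Over all genes, 48.2% were called lower and 32.4% higher in MZdicer. Between the genotypes at 9 hours, 13 of the list were called higher in MZdicer and 19 lower, with no call for 10. The called genotype differences described next were all from the lower ones. The gene for cyclin B1, ccnb1, which drives mitosis, went from 11469 and 12310 to 2725, 2736 and 2556 in MZdicer and 2903, 2827 and 2990.1 in wild type, so that 22.5% and 24.4% were left. The difference between the genotypes was -0.12 on the log2 scale (adjusted p = 0.028), a call lost without replicate 3 of either genotype (adjusted p = 0.13 and 0.11). The call was also lost without the trend in the fit (adjusted p = 0.11) and with hybridisation date as a random block (adjusted p = 0.054). The genes gmnn and cdt1, an inhibitor and a licensing factor of DNA replication, had 10.4% and 18.6% left in MZdicer and 17% and 26.8% in wild type. Both were called lower in MZdicer than in wild type at 9 hours, with log2 differences of -0.69 (adjusted p = 4.1e-07) and -0.52 (adjusted p = 9.4e-07). The anaphase activator gene cdc20 was lower as well, at 1035, 1033 and 950.2 in MZdicer and 1886, 1886 and 2000.4 in wild type after 7498 and 7817 at the 16-cell stage (log2 difference -0.93, adjusted p = 1.1e-09). The genes that rose included ccnd1, for a cyclin of the G1 phase, from 156 and 103 to 4361, 4298 and 4549 in MZdicer and 4636, 4475 and 4537 in wild type, with overlap between the groups at 9 hours.

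For DNA replication, 22 of 45 genes were called lower in MZdicer than at the 16-cell stage and 14 higher, shares close to those over all genes (48.2% and 32.4%). Against wild type at 9 hours, 24 were higher and 8 lower, 4 of the former by at least 2-fold, where 24.4% of all genes were higher and 29.2% lower. The helicase subunit gene mcm4 had 1200.4 and 1251 at the 16-cell stage, 2090.2, 2465 and 2277 in MZdicer and 895, 837 and 718 in wild type (log2 difference 1.46 ± 0.14 SE, adjusted p = 6.9e-07). The subunit gene mcm3 rose in both, from 129.5 and 138 to 3006, 2752 and 2912 and 2919.6, 3400.0 and 3127, while mcm6l, a maternal form, fell to 7.17% of its 16-cell signal in MZdicer.

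The maternal factors that help to switch on the embryo's genome and set its axes moved in both directions. Of 32 such genes, 17 were called lower and 14 higher in MZdicer, against 48.2% and 32.4% over all genes. The transcription factor gene nanog, 1 of these activators, went from 10730 and 10896 to 421, 402 and 433 in MZdicer and 352, 275 and 316 in wild type. The MZdicer arrays were all above the wild-type arrays (log2 difference 0.40 ± 0.13 SE, adjusted p = 0.017), a call that did not hold when MZdicer replicate 3 (adjusted p = 0.052) or wild type replicate 2 (adjusted p = 0.082) was left out. The mesendoderm regulator gene eomesa had 2823 and 3047 at the 16-cell stage and 80, 80.5 and 73 in MZdicer, above the 45.2, 27.1 and 30.2 of wild type (log2 difference 0.92, adjusted p = 1.6e-04). The Nodal co-receptor gene tdgf1 had 1365 and 1286 at the 16-cell stage and was below that in MZdicer, at 876, 823 and 867, and above it in wild type, at 1685, 1707 and 1877.

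Among genes of RNA decay and translation control, 31 of 65 were called lower and 25 higher in MZdicer. The shares over all genes with a symbol were close to these, at 48.2% and 32.4%. The deadenylase subunit gene cnot8 fell from 8092 and 7926 to 1166, 1203 and 1227 in MZdicer and 1208, 1108 and 1104 in wild type. The poly(A)-binding protein gene pabpc1l, of the egg type, kept 3.47% in MZdicer and 2.97% in wild type. Between the genotypes at 9 hours, 23 were called higher in MZdicer and 21 lower, with no call for 21. By at least 2-fold, 5 were higher and 2 lower. The genes caprin2 and cnot7 were among the 5. The gene caprin2, for an RNA-binding protein, had 4256 and 3866 at the 16-cell stage, 1579.5, 1494 and 1605 in MZdicer and 251, 222 and 245 in wild type (log2 difference 2.63 ± 0.09 SE, adjusted p = 1.7e-11). The deadenylase gene cnot7 had 360.1 and 334, 150.3, 147 and 144 and 48.9, 29.7 and 32.7 in the same order (log2 difference 1.64 ± 0.15 SE, adjusted p = 5.2e-07). Of 6 measured genes of the microRNA pathway, 4 were lower than at the 16-cell stage in MZdicer. The 6 include dicer1 itself and dnd1, whose values are given above. Among the 4 was drosha, whose enzyme makes the precursors that Dicer cuts, with 22.5% left against 12.8% in wild type.

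The 12 bright genes with the largest excess in MZdicer over wild type differed by log2 values of 2.58 to 4.16. In wild type at most 10.2% of their 16-cell signal was left, and in MZdicer 20.3% to 95.3%. All 12 were called lower than at the 16-cell stage in wild type. In MZdicer 11 were called lower, so a fall from the wild-type 16-cell level was measured without Dicer. That more signal was left in MZdicer than in wild type follows from how the 12 were picked. The call of the fall in MZdicer was lost for smarca2 with a pseudocount of 1 and for map1sa without 16-cell replicate 1 (adjusted p = 0.052 for both). Besides tdrd6a and caprin2 they were cd82b, akr1b1.2, smarca2, acadl, ly75, got2a, ctsz, sod1, ciarta and map1sa.

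The tetraspanin gene cd82b led them, with 2188 and 2188 at the 16-cell stage, 1040.1, 1116 and 1111 in MZdicer and 28, 54.2 and 60.7 in wild type (log2 difference 4.16 ± 0.18 SE, adjusted p = 1.9e-10). Its other 2 probe sets, with 16-cell means of 396 and 410.4, differed in the same direction by 1.35 and 0.44. The superoxide dismutase gene sod1 had 3114 and 3217, 1854, 1884 and 1940.4 and 306, 271 and 264 in the same order (log2 difference 2.69 ± 0.07 SE, adjusted p = 1.4e-12). The genes cd82b, sod1 and tdrd6a belong to a list of 13 genes that other experiments described as targets of miR-430, so their excess without Dicer is no independent evidence. Of that list 9 were called higher in MZdicer than in wild type, 5 of them by at least 2-fold, and 2 lower.

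The aldose reductase type gene akr1b1.2 was the one of the 12 without a called fall in MZdicer. Its values were 591 and 556 at the 16-cell stage, 536, 564 and 539 in MZdicer and 42.2, 28.9 and 25.9 in wild type, and its change in MZdicer was -0.07 ± 0.17 SE (adjusted p = 0.73). With median centring that change was -0.55 (adjusted p = 0.0070). The acyl-CoA dehydrogenase gene acadl, of mitochondrial fat breakdown, had 1102 and 1137 at the 16-cell stage, 290.3, 332 and 327 in MZdicer and 12.4, 12.5 and 13.1 in wild type. The mitochondrial aminotransferase gene got2a had 1325 and 1195, 316, 309 and 347 and 31.1, 26.8 and 28.5. Both lay between the 16-cell and the wild-type level in MZdicer, on every array. Second probe sets differed less for smarca2, an ATPase gene of chromatin remodelling (0.36 against 3.55), and for map1sa, a microtubule-associated protein gene (0.14 against 2.58, the former not called).

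Some bright transcripts were instead lower without Dicer. The 8 largest such differences ranged from -2.11 to -1.56 on the log2 scale. All 8 genes were called lower than at the 16-cell stage in MZdicer, and in wild type 3 were called lower and 3 higher. The solute carrier gene slc22a31 had 639 and 691 at the 16-cell stage, 209.9, 227 and 205 in MZdicer and 1013, 803 and 1130.3 in wild type (log2 difference -2.11 ± 0.14 SE, adjusted p = 1.8e-08). The ribosome assembly gene rrs1 had 629 and 607, 409, 364 and 367 and 1009.5, 1387 and 1291 in the same order, with wild type above and MZdicer below the 16-cell arrays (log2 difference -1.64 ± 0.10 SE, adjusted p = 7.5e-09). The alpha-2-macroglobulin type gene a2m3a, on both of its probe sets, and gid8b, of a ubiquitin ligase complex, also on both, were lower in MZdicer. The others were acsf2, gpx8, tmem45a and palm1b.

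**Figure D3:**
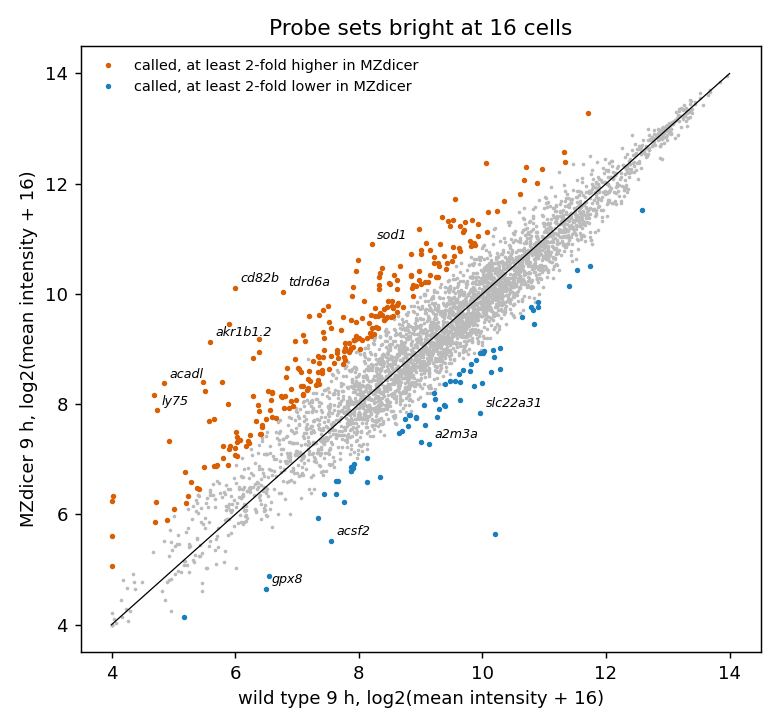
Mean normalised intensity at 9 hours in MZdicer (y axis) against wild type (x axis), both as log2(intensity + 16), for the 3977 probe sets bright at the 16-cell stage, with the line of equality. Coloured points mark the 255 probe sets called at least 2-fold higher and the 68 called at least 2-fold lower in MZdicer, and a few of the named genes are labelled.

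Not every bright transcript went down. The 8 genes with the largest rises among the bright ones all coded for cytosolic ribosomal proteins, and all were called higher in both genotypes. The gene rpl7 rose from 500.3 and 518 to 8129.7, 8622 and 8234 in MZdicer and 8092, 7498 and 7559 in wild type. Of 73 measured ribosomal protein genes, 72 were called higher in MZdicer, 68 of them by at least 2-fold, and none lower, with the same counts in wild type. The median log2 change was 2.62 in MZdicer and 2.61 in wild type. Between the genotypes 19 were higher in MZdicer and 4 lower, none by 2-fold, and with median centring these counts turned to 1 higher and 43 lower, so no direction is given for the list between the genotypes.

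The other housekeeping lists rose less uniformly. Of 44 proteasome genes, 37 were called higher and 3 lower in MZdicer, and of 86 genes of oxidative phosphorylation and its assembly, 62 higher and 15 lower. For the mitochondrial ribosome, 32 of 59 genes rose and 13 fell, for translation factors 36 of 56 rose and 13 fell, and for splicing 37 of 65 rose and 22 fell. With median centring these rises and falls were 24 and 23 for the mitochondrial ribosome, 26 and 17 for translation factors and 32 and 27 for splicing. Against wild type at 9 hours, splicing genes were more often lower than higher in MZdicer (35 lower, 6 higher), and this held as deposited (33 and 7) and with median centring (47 and 4). For the mitochondrial ribosome 27 were lower and 11 higher, which turned to 12 lower and 16 higher as deposited. None of the 35 splicing genes was lower by 2-fold. In the histone and chromatin list, 30 of 63 genes were higher and 27 lower than at the 16-cell stage, which turned to 24 higher and 31 lower with median centring. The variant histone gene h2ax had 132 and 159 at the 16-cell stage, 1039.9, 1162 and 1298 in MZdicer and 427, 384 and 369 in wild type (log2 difference 1.53 ± 0.14 SE, adjusted p = 2.9e-07).

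To follow the embryo's own transcripts, probe sets with a mean of at most 50 on the 16-cell arrays were taken as dim at that stage. They numbered 2731 (17.6% of all), with the class edge between 49.951 and 50.066. In MZdicer 1476 were called higher, 1173 by at least 2-fold, and 549 lower. In wild type 1407 were called higher, 1114 by at least 2-fold, and 440 lower. As the 16-cell arrays chose the class, these rises are a description. The falls depend on the scaling. Of the 1513 dim probe sets at most 50 at 50% epiboly, 350 were called higher and 543 lower in MZdicer. As deposited these counts were 682 and 38, and with median centring 467 and 195. An intensity of at least 500 at 9 hours was reached by 386 in MZdicer and 375 in wild type, after 339 at 50% epiboly. At least 5000 was reached by 20 and 22.

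Between the genotypes, 597 dim probe sets were called higher in MZdicer and 461 lower, a balance that turned with median centring (657 higher, 807 lower). At least 2-fold differences numbered 197 higher (7.21%, against 4.63% of all) and 66 lower (2.42%, against 1.77%), and 204 and 68 within the shared scan day. Split by the 50% epiboly array, which was done after the values were seen, the counts were as follows. That array is wild type, so the split itself leans towards such genotype differences, and the counts are a description. Of the 339 dim probe sets that had reached 500 at 50% epiboly in wild type, MZdicer was higher for 76 (22.4%) and lower for 141 (41.6%) at 9 hours. All but 1 of the 339 were nevertheless called at least 2-fold higher in MZdicer than at the 16-cell stage. Of the 1513 that were still at most 50 at 50% epiboly, MZdicer was higher for 244 (16.1%) and lower for 149 (9.85%), which turned to 207 higher and 265 lower with median centring.

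The first transcripts of the embryo's genome appeared without Dicer. Of 54 measured genes listed as a first zygotic wave, 46 were called higher in MZdicer, all of them by at least 2-fold, and 3 lower, against 47 and 5 in wild type. The median log2 change was 3.72 in MZdicer and 4.05 in wild type. Between the genotypes 13 were higher and 19 lower in MZdicer, and 22 were not called, while as deposited 18 were higher and 17 lower. The neural transcription factor gene sox3 rose from 36.4 and 36.3 to 4040.0, 3957 and 4256 in MZdicer and 3283, 3915 and 3852 in wild type. The BMP-driven ventral repressor gene ved rose from 6.99 and 10.1 to 3480.5, 3508 and 3549 and 4000.3, 3719 and 3362. The groups at 9 hours overlapped for ved, while for sox3 the MZdicer arrays lay just above the wild-type arrays without a call (adjusted p = 0.073). The endoderm factor gene sox32 rose less without Dicer, from 5.72 and 7.65 to 509.6, 511 and 518, against 1109, 1029 and 1176 in wild type (log2 difference -1.08 ± 0.09 SE, adjusted p = 1.5e-07).

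Genes of the outer covering layers appeared strongly. Of 46 periderm and epidermis genes, 36 were called higher in MZdicer and 4 lower, with 36 and 3 in wild type, and the median log2 change was 3.3 in MZdicer. Against wild type, 21 were lower and 7 higher. The keratin gene krt97 was listed at 0 on both 16-cell arrays and had 8513, 8437 and 8206 in MZdicer and 8108, 7873 and 8463 in wild type, with overlap. The keratin gene krt5, also listed at 0, reached 5955, 5829 and 5736 in MZdicer and 7014, 7716 and 7697 in wild type, all MZdicer arrays being lower (log2 difference -0.35 ± 0.05 SE, adjusted p = 3.7e-05). The oxidase subunit gene cyba had 112 and 103 at the 16-cell stage and reached only 198, 199 and 208 in MZdicer, against 1256, 1439 and 1172 in wild type (log2 difference -2.58 ± 0.11 SE, adjusted p = 1.3e-10). A second probe set for cyba differed by -2.62, and its change from the 16-cell stage in MZdicer was not called (0.13, adjusted p = 0.33). The surface layer gene lye reached 9728, 10061 and 9897 in MZdicer and 10212, 10730 and 10834 in wild type from 7.21 and 0.198.

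Nodal and mesendoderm genes, which pattern the future gut and mesoderm, were called higher for 27 of 35 and lower for 3 in MZdicer. Against wild type at 9 hours, 21 were lower and 9 higher, and these counts were 14 and 9 as deposited. The mesoderm gene tbxta rose from 41.8 and 42.5 to 2624, 2365 and 2283 in MZdicer and 2607, 2956 and 3213 in wild type. These groups overlapped, and the log2 difference of -0.27 ± 0.08 SE (adjusted p = 0.0098) was not called without wild type replicate 3 (adjusted p = 0.061). The organiser gene gsc had 153 and 146, 314, 335 and 363 and 732, 772 and 797 in the same order (log2 difference -1.15 ± 0.10 SE, adjusted p = 2.6e-07). The Nodal inhibitor gene lft2 went the other way, at 1009, 1029 and 918 in MZdicer and 589, 605 and 673 in wild type after 37.3 and 19 at the 16-cell stage (log2 difference 0.65 ± 0.12 SE, adjusted p = 4.7e-04). It is on the list of targets described elsewhere.

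Of 43 BMP and dorsoventral genes, 30 were called higher and 8 lower in MZdicer, and 18 were lower and 7 higher than in wild type. As deposited, 13 were lower and 10 higher than in wild type. The secreted regulator gene szl, which acts on the Chordin-cleaving protease, was higher in MZdicer, at 2518, 2264 and 2356 against 1042, 1145 and 943 in wild type and 9.11 and 9.61 at the 16-cell stage (log2 difference 1.18 ± 0.10 SE, adjusted p = 1.6e-07). The organiser ligand gene admp was lower, at 535, 622 and 623 against 1259, 1177 and 1334 from 31.7 and 30.9 (log2 difference -1.06 ± 0.07 SE, adjusted p = 1.2e-08). The BMP cofactor gene twsg1b was 325, 404 and 369.9 in MZdicer, 1076, 1020.2 and 1068 in wild type and 282 and 295 at the 16-cell stage. That made log2 changes of 0.32 in MZdicer and 1.81 in wild type, and the former was not called with median centring (0.01, adjusted p = 0.93), without MZdicer replicate 2 or without either 16-cell array.

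Paraxial mesoderm and tailbud genes leaned the other way between the genotypes. Of 53, 39 were called higher and 2 lower in MZdicer than at the 16-cell stage, and 21 were higher and 8 lower than in wild type. The posterior gene cdx4 rose from 2.12 and 3.72 to 7036, 6706 and 6583 in MZdicer and 6315, 6335 and 6335 in wild type, and the presomitic gene msgn1 from 30.5 and 15.7 to 4719, 4506 and 4791 and 4526, 4491 and 4568. The difference between the genotypes was not called for either (adjusted p = 0.078 and 0.72). The Hox gene hoxc8a, of posterior identity, had 25.5 and 32.1 at the 16-cell stage, 2540.1, 2493 and 2402 in MZdicer and 804, 851 and 698 in wild type, with 97.2 at 50% epiboly (log2 difference 1.64 ± 0.09 SE, adjusted p = 1.2e-09). The Notch ligand gene dlb had 25.3 and 29.3, 296, 283 and 317 and 66.7, 72.2 and 57.5 in the same order (log2 difference 1.95 ± 0.10 SE, adjusted p = 1.1e-09). For both genes every MZdicer array was above every wild-type array on these probe sets. Of the other probe sets for hoxc8a, one differed by 1.2 and one did not show the difference (-0.03, adjusted p = 0.87), and the second for dlb differed by 0.76.

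Neural plate genes were called higher for 36 of 53 and lower for 7 in MZdicer, and 15 were higher and 11 lower than in wild type. The transcription factor gene sox11a, listed at 0 on both 16-cell arrays, reached 3707, 3640.3 and 3393 in MZdicer and 1584, 1436 and 1471 in wild type (log2 difference 1.25 ± 0.05 SE, adjusted p = 2.0e-10). The forebrain and midbrain gene otx2b reached 1942, 1882 and 1840.0 and 1761, 1816 and 1903 from 56.4 and 77, and these groups overlapped. The midbrain-hindbrain gene pax2a was higher in MZdicer, at 309.5, 307 and 286 against 121, 134 and 94 from 65 and 64.8 (log2 difference 1.27 ± 0.14 SE, adjusted p = 2.7e-06).

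Genes of the yolk syncytial layer, the tissue that passes yolk lipids to the embryo, were called higher for 27 of 35 and lower for 3 in MZdicer, with 14 higher and 11 lower than in wild type. The apolipoprotein gene apoeb rose from 31.9 and 39.2 to 8797, 8513 and 8834 in MZdicer and 8538, 8206 and 8772 in wild type, with overlap. The apolipoprotein gene apoa2 had 28.6 and 39.7, 2146, 2195 and 2071 and 991, 903 and 829.5 in the same order (log2 difference 1.22 ± 0.10 SE, adjusted p = 1.3e-07). The apolipoprotein gene apoc1, listed at 0 at the 16-cell stage, was the lower one in MZdicer, at 3965, 4285 and 4248 against 6429.6, 6646 and 6505 (log2 difference -0.65 ± 0.07 SE, adjusted p = 1.2e-06).

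The 20 largest rises among dim genes covered log2 changes of 7.14 to 9.20 in MZdicer, and all 20 were called higher in wild type too. Between the genotypes 6 were called higher and 5 lower in MZdicer, with no call for 9. The chemokine gene cxcl12b, which guides migrating cells, was among the 6, at 2297, 2309 and 2248 in MZdicer and 1117, 1248 and 1257 in wild type (log2 difference 0.91 ± 0.07 SE, adjusted p = 3.3e-08). The methyltransferase gene bhmt, of methionine metabolism, was listed at 0 on both 16-cell arrays and reached 7358, 7434 and 7103 in MZdicer and 5807, 4991 and 4549 in wild type.

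**Figure D4:**
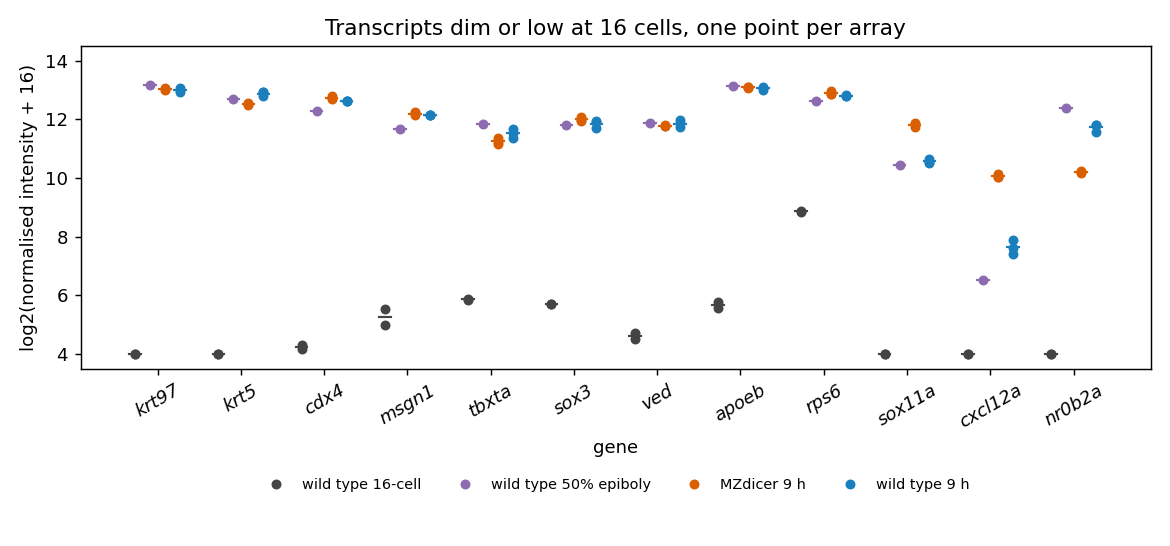
Normalised intensity (y axis, log2(intensity + 16)) of 12 genes plotted as dim or low at the 16-cell stage. Each array gives 1 point and a short line marks each group mean, for the same 4 groups as in the plot of maternal genes. The ribosomal protein gene rps6 comes from a list with no member in the dim class. The 2 groups at 9 hours lie close together from krt97 to rps6, MZdicer lies higher for sox11a and cxcl12a, and wild type lies higher for nr0b2a.

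The 8 dim genes with the largest excess in MZdicer differed from wild type by log2 values of 1.95 to 3.02. In wild type 4 of them were called higher than at the 16-cell stage, and in MZdicer all 8. The methionine adenosyltransferase gene mat1a had 46.6 and 49.1 at the 16-cell stage, 569, 630.2 and 506 in MZdicer and 58.9, 50.9 and 58.5 in wild type (log2 difference 3.01 ± 0.21 SE, adjusted p = 2.5e-08). The amino acid oxidase gene dao.1 had 10.4 and 21.7, 394, 361 and 354 and 37.1, 23.5 and 35.3 in the same order (log2 difference 3.02 ± 0.29 SE, adjusted p = 5.5e-07). No array of one genotype reached the other, and both genes were near their 16-cell level in wild type and far above it in MZdicer. The creatine synthesis gene gamt had 34.4 and 18.6, 1459, 1689 and 1498 and 374, 280.2 and 290.1 (log2 difference 2.25 ± 0.29 SE, adjusted p = 1.3e-05).

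The chemokine gene cxcl12a, also on the list of targets described elsewhere, was listed at 0 on both 16-cell arrays and had 1023, 1099.7 and 1037 in MZdicer and 219.8, 181 and 152 in wild type (log2 difference 2.43 ± 0.11 SE, adjusted p = 2.1e-10). Its second probe set differed by 1.44. The remaining genes of the 8 were rtn1b, slc1a3a and cxxc5a, beside dlb above.

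The 8 dim genes with the largest deficit in MZdicer differed by -3.08 to -1.17. The complement gene c6.2 had 11.9 and 15.6 at the 16-cell stage, 31.2, 11.4 and 9.41 in MZdicer and 277, 222 and 272 in wild type, so a rise was called in wild type and not in MZdicer (adjusted p = 0.86), and the difference itself was -3.08 ± 0.50 SE (adjusted p = 1.0e-04). The other 7 rose in both genotypes. The gene tp53inp2a had 37.3 and 6.62, 119, 129 and 133 and 999, 982 and 1061 in the same order (log2 difference -2.85 ± 0.26 SE, adjusted p = 2.9e-07). The nuclear receptor gene nr0b2a, listed at 0 at the 16-cell stage, reached 1156, 1177 and 1142 in MZdicer and 3593, 3019.8 and 3539 in wild type (log2 difference -1.53 ± 0.09 SE, adjusted p = 5.6e-09), and its second probe set differed by -1.63. The nuclear receptor gene hnf4a, a regulator of liver and gut genes, differed by -1.38 on 1 probe set and by -0.28, not called, on the other. The rest were lrwd1, slc3a2b, rgcc and btr30.

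Of 30 genes of stress and p53 responses, 11 were called higher and 12 lower than at the 16-cell stage in MZdicer. Over all genes with a symbol, 32.4% were called higher and 48.2% lower, so movement in both directions is not particular to this list. Against wild type, 8 of the list were higher and 13 lower, where 24.4% of all genes were higher and 29.2% lower. The stress factor gene atf4a rose from 109.8 and 113 to 2467, 2733 and 2533 in MZdicer and 1967, 1548 and 1441 in wild type (log2 difference 0.65 ± 0.11 SE, adjusted p = 1.2e-04). The heat shock factor gene hsf1 was 84, 64.3 and 59.1 in MZdicer and 465, 472 and 441 in wild type after 193 and 184 (log2 difference -2.49 ± 0.20 SE, adjusted p = 7.6e-08).

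Of 51 genes that mark cell types formed later, 14 were called higher and 16 lower than at the 16-cell stage in MZdicer, and 5 were higher by at least 2-fold. As deposited, 26 were higher and 1 lower. Against wild type 1 was higher and 11 lower, and as deposited 4 and 3. The exceptions described here, lcp1 and fabp2, had strong signals in both genotypes. The leukocyte gene lcp1, listed at 0 at the 16-cell stage, had 1920.0, 1869.6 and 2188 in MZdicer and 2186, 2193 and 2029.7 in wild type, and the fatty acid carrier gene fabp2 had 2842, 3145 and 3028 and 1597, 1371 and 1357. Heart muscle troponin tnnt2a was at most 2.46 on the MZdicer arrays, a level where background is not known. With scan day as a fixed block it was called lower than in wild type (log2 difference -0.71, limma, adjusted p = 0.015). The main fit did not call this difference.

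**Figure D5:**
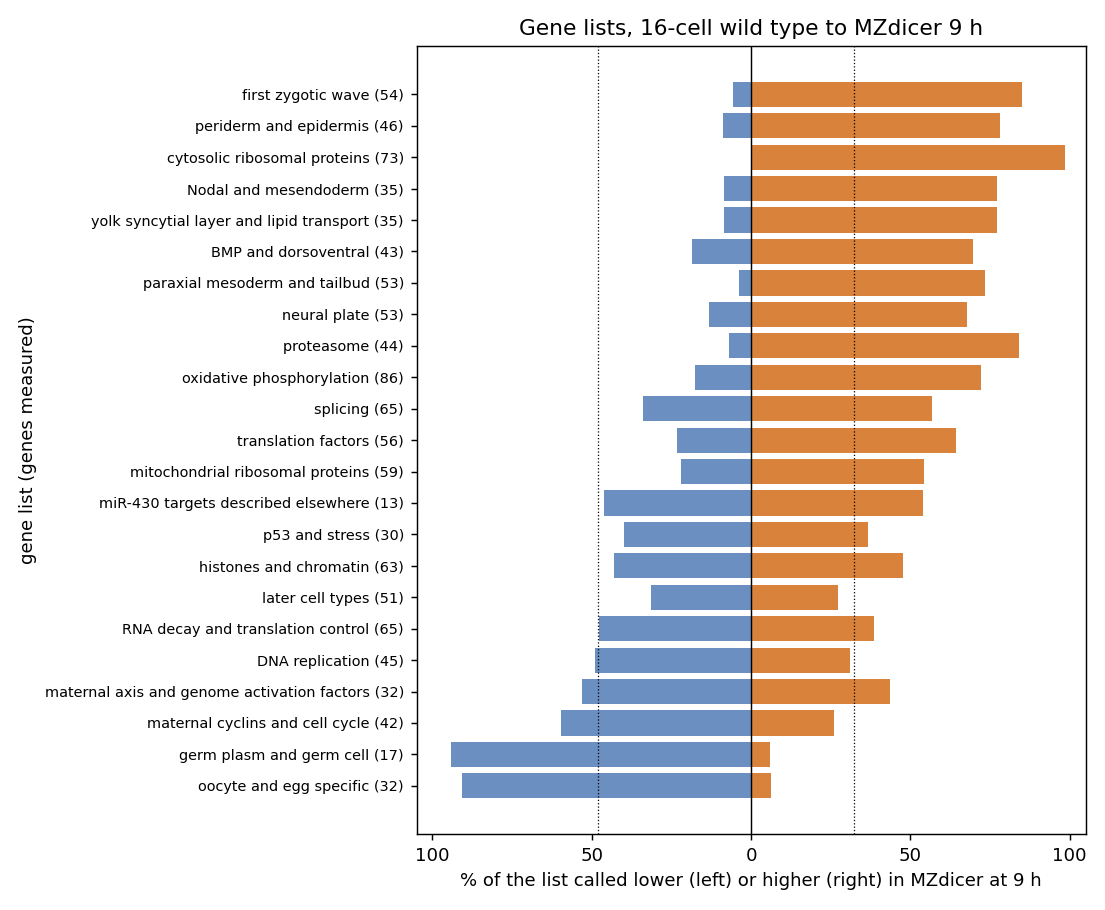
Share of the measured genes of each list (y axis, number of genes in parentheses) called lower (left, percent) or higher (right, percent) in MZdicer at 9 hours than in wild type at the 16-cell stage, sorted by median log2 change, without the microRNA pathway list of 6 genes. Dotted lines mark the shares over all 8793 genes with a symbol, 48.2% lower and 32.4% higher, and the egg and germ plasm lists lie far left of them.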

How the data were processed

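The authors deposited 1 intensity per probe set and array on a linear scale for Affymetrix zebrafish arrays, with 44 to 285 values below 0 per array. The background correction, probe summary and scaling are not given in the sources used here. Hybridisation and scan dates recorded with the arrays gave batch numbers and were used for nothing else. The deposited intensities were quantile-normalised between arrays, and values below 0 were then set to 0. The log2(intensity + 16) of 15502 probe sets was fitted with limma 3.58.1 in R 4.3.3 (15 arrays in 6 groups, eBayes with trend, 9 residual degrees of freedom, Benjamini-Hochberg adjustment). The 115 control probe sets were left out of the normalisation and of the fit. The number of arrays limits the precision.

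By the platform annotation 10795 probe sets had 1 gene symbol, 135 had several and 4572 had none. A gene was represented by its brightest probe set. Genes were named by size of change without overlap between groups (20 falls, 20 rises, and 12, 8, 8, 8 and 8 for the other rankings) and, within 24 gene lists, by p-value and by size of the genotype difference, which gave 276 genes. Members and lists were chosen with earlier results of these data known, and the name patterns of the ribosomal, proteasome and translation lists were narrowed again after their counts were seen. Simulated data with known changes were used to test the fit. The alternatives changed the scaling, the pseudocount, the filter, the batch and replicate terms, the class limits and the arrays.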

Additional observations from a re-analysis of the deposited data

Results flagged for a closer look

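Of 276 named genes, 188 differed between MZdicer and wild type in their change from the 16-cell stage, by the fitted difference itself. Many of the 276 were named by the size of that difference, which raises the count, and over all probe sets 22.7% were called higher and 26.6% lower. The values below are for the 14 of them that were called in opposite directions in the 2 genotypes. Both changes use the same 16-cell arrays. A rise in MZdicer stood beside a fall in wild type for the solute carrier gene slc1a3a (1.81 and -0.48, log2 difference 2.28), the retinoic acid receptor gene rarga (1.1 and -0.49, difference 1.59) and the translation elongation factor gene eef1b2 (1.34 and -0.24, difference 1.58). The same was seen for the respiratory chain gene ndufb10 (0.72 and -0.79, difference 1.52), the helicase subunit gene mcm4 (0.88 and -0.58, difference 1.46) and the mitochondrial ribosomal gene mrps34 (0.61 and -0.68, difference 1.29), though the rise of mrps34 was not called with median centring (0.097, adjusted p = 0.24). It also held for the neural gene zic5 (0.56 and -0.63, difference 1.19) and for the translation initiation gene eif4a1b (0.42 and -0.98, difference 1.40), whose change in MZdicer turned to -0.10 with median centring. A second probe set for rarga had means of 237 at the 16-cell stage, 356 in MZdicer and 208 in wild type. On it the change in MZdicer was 0.56 and the difference 0.73, both smaller.

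A fall in MZdicer stood beside a rise in wild type for 6 genes. The log2 changes were -1.27 and 1.22 for the heat shock factor gene hsf1 (difference -2.49), -1.57 and 0.54 for slc22a31 (difference -2.11), and -0.68 and 0.96 for the ribosome assembly gene rrs1 (difference -1.64). They were -1.23 and 0.33 for gid8b (difference -1.56), -0.62 and 0.40 for the Nodal co-receptor gene tdgf1 (difference -1.02), and -0.61 and 0.25 for the chromatin gene cbx1a (difference -0.86). For hsf1 a second probe set fell by 1.78 on the log2 scale in MZdicer, more than its difference from wild type of -1.16, so the rise in wild type was measured on 1 probe set only. The largest adjusted p of the 14 differences was 3.9e-06 (limma), for zic5.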

How the results depend on the processing

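No MZdicer array at the 16-cell stage was used, the background of the arrays is not known, and dim probe sets depend most on the settings below. Of the 276 named genes, 257 kept direction and call from the 16-cell stage to MZdicer under every alternative that gave them a value (256 had one without the dimmest 40% of probe sets), 14 changed their call and 5 their direction. For MZdicer against wild type at 9 hours these numbers were 196, 70 and 10. The cause of the changes was not tested. On the intensities as deposited, 1867 dim probe sets rose by at least 2-fold in MZdicer (1173 after quantile normalisation), MZdicer was called higher than wild type for 947 dim ones (597), was lower by at least 2-fold for 41 bright ones (68), and the median signal left was 53.9% in MZdicer and 48.1% in wild type (57.2% and 56.6%). The changes from the 16-cell stage in MZdicer turned to 0.14 for fgf8b (adjusted p = 0.45) and 0.0459 for rbp4 (adjusted p = 0.83). With median centring, 807 dim probe sets were called lower in MZdicer than in wild type (461), and the medians left were 45.0% and 44.5%. Changes from the 16-cell stage turned to -0.25 for celf1, -0.49 for e2f8 and -0.10 for eif4a1b, and differences from wild type to -0.15 for eif3ba, -0.0647 for eif3g, -0.0595 for ran, -0.13 for krt97 and ybx1, -0.14 for psmb6, -0.11 for rpl10, -0.12 for rpl17, -0.17 for rpl23a and -0.0056 for rpsa.

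With a pseudocount of 1, 123 dim probe sets were at least 2-fold lower in MZdicer than in wild type (66), and with 64 these were 39, with 95 higher (197) and 40 bright ones lower. Without the dimmest 40% of probe sets, and so with fewer tested, 3627 were called lower than at the 16-cell stage (6897), 1952 by at least 2-fold (3223), and 53.8% of the calls were rises. Dim ones then numbered 773 with a rise of at least 2-fold, 275 higher and 236 lower than wild type, and 83 and 42 by at least 2-fold. With bright set from 250, 1971 were higher and 1980 lower than wild type (1251 and 1308), 118 lower by at least 2-fold, and 64.15% and 63.95% were left. From 1000 these were 665, 703 and 26, with 130 higher by at least 2-fold (255) and 52.5% and 51.3% left. With dim set up to 25, 307 were higher and 205 lower, 108 and 35 by at least 2-fold, and up to 100 the counts were 953, 1011 and, by at least 2-fold lower, 107.

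Leaving out each array in turn gave 3212 to 3261 falls and 3024 to 3050 rises of at least 2-fold from the 16-cell stage, and medians left of 56.6% to 57.3% in MZdicer and 56.1% to 56.9% in wild type. Bright probe sets at least 2-fold higher than wild type then numbered 240 to 279. The replicate block gave 3236 falls and 3041 rises of at least 2-fold, and 256 bright and 197 dim probe sets at least 2-fold higher than wild type. Same-numbered samples did not deviate together (correlations of -0.23 to 0.05), so the numbers give no pairing.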

Other observations

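The following probe sets were singled out after their values were seen. The strongest 16-cell signals included an unnamed probe set with 12699 on both 16-cell arrays and 182 at 50% epiboly. At 9 hours it had 644, 672 and 736 in MZdicer against 51.5, 34.7 and 45.3 in wild type, a log2 difference of 3.56 ± 0.23 SE (limma, adjusted p = 1.1e-08).

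Probe sets for the coat protein gene copb2, which serves vesicle traffic, gave unlike values. One had 1010 and 883 at the 16-cell stage, 101, 0 and 0 in MZdicer, and 1118, 1208 and 1167 in wild type at 9 hours (log2 difference -5.25 ± 0.97 SE, limma, adjusted p = 0.00036). The others differed by 0.41 in the opposite direction (limma, adjusted p = 0.0096) and by 0.05, which was not called (limma, adjusted p = 0.59). The loss was therefore measured on 1 probe set of 3.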
